A study of Oncorhynchus mykiss with 20 samples.

Results

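The genes described here are the lipid synthesis, storage and phospholipid genes of the rainbow trout (Oncorhynchus mykiss) whose symbols begin with the letters of known lipid gene families, among them the acetyl-CoA carboxylases, elongases, desaturases, acyltransferases, perilipins, lipases, phospholipases, apolipoproteins, fatty acid-binding proteins, ceramide synthases and the SREBF and PPAR regulators. The rule left out acsl4a, apoba, fabp2 and pparab. It matched 93 symbols in the RefSeq trout gene table, and 55 of them had transcripts in the quantified set, out of 6926 genes there with a symbol. Of the 55 genes, 52 are lipid genes in 12 role groups. The other 3 match by letters only: apooa encodes a subunit of the mitochondrial cristae complex, and gpatch3 and gpatch4 encode G-patch RNA-binding proteins. The 55 genes took 1.14% of all reads.

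RNA was taken from whole intestines of all-female fry of an ARS-KO selected strain, called Select, and of a strain in common commercial use, called Commercial. Each strain was sampled at 65 and at 20 days post hatch (dph), which gave 4 groups of 5 libraries: Select 65 dph, Select 20 dph, Commercial 65 dph and Commercial 20 dph. Eggs of both strains were reared together and the fry went to separate raceways after hatching, so strain and raceway cannot be told apart; both strains received a commercial starter feed throughout. The labels call the replicates biological and say nothing of fish or pools, so each p-value measures the spread between these samples. The comparisons address the effect of development within each strain and of strain at each age.

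Intestinal cells take up fatty acids and monoacylglycerol from the meal, bind them to fatty acid-binding proteins, rebuild them into triacylglycerol and phospholipid, and either store these in droplets held by perilipins or export them in lipoproteins that carry apolipoproteins. Acetyl-CoA carboxylase, the elongases and the stearoyl-CoA desaturase make and modify fatty acids in the cell, and carnitine palmitoyltransferases bring them into mitochondria for breakdown. Phospholipases A2 cut a fatty acid from phospholipids, in digestion as well as in signalling, and SREBF2 drives the genes of sterol synthesis and uptake.

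The libraries held 7314588 to 13682738 expected counts. All 11 enterocyte list genes found were expressed at 20 dph. Their summed level was 10989 to 16430 CPM, the count scaled to the library, in Select 65 dph. It was 11221 to 17973 in Select 20 dph, 11189 to 15977 in Commercial 65 dph and 16397 to 19812 in Commercial 20 dph. Of these genes, mep1b was at 0 CPM in every 65 dph library, and apoba reached at most 3.20 CPM at that age. One library stood apart by liver transcripts: the 8 liver list genes found of 21 listed summed to 17800 CPM in Select 20 dph replicate 1, against 25.2 to 115 CPM in the other Select 20 dph libraries. Its 3 skeletal muscle list genes, of 10 listed, summed to 1732 CPM, against 26.9 to 42.3 CPM. Of these, atp2a1l was at 1367 CPM and ckmb at 342 CPM. mylpfb, at 23.5 CPM, was within the 22.4 to 35.5 CPM of the other Select 20 dph libraries. Commercial 20 dph replicate 5 held 333 CPM of the liver list, against 21.5 to 122 CPM in the other Commercial 20 dph libraries; the 65 dph libraries held 6.60 to 30.7 CPM. At 65 dph the smooth muscle list genes smtna and smtnb summed to 227 CPM in Commercial replicate 2 and to 223 and 221 CPM in Select replicates 2 and 5, against 98.7 to 133 CPM in the remaining libraries of that age. Calls that turned without these libraries are given with both outcomes, and the fits without 3 of them leave out Select 20 dph replicate 1, Commercial 65 dph replicate 2 and Select 65 dph replicate 5. These 3 were chosen after seeing the data, and Select 65 dph replicate 2, with a smooth muscle sum of 223 CPM, was kept.

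Most lipid genes that changed with age were lower at 65 dph, in both strains. A gene counted as called when the adjusted p of edgeR's quasi-likelihood test was under 0.05, and 44 of the 55 genes passed the filter on low counts, 41 of them lipid genes. In Select, 23 of the 44 were called between 65 and 20 dph, 2 higher and 21 lower at 65 dph; over the 32166 features tested 34.3% were called, 16.4% higher and 17.9% lower. In Commercial, 22 were called, 4 higher and 18 lower at 65 dph, against 30.1% of all features, 14.5% higher and 15.6% lower. The median log2 fold change of the 44 genes was -0.42 in Select and -0.52 in Commercial, and that of all features was 0.07 in Select and 0.05 in Commercial. Without the genes matched by letters only, 21 of 41 were called in each strain, with medians of -0.40 in Select and -0.53 in Commercial. The same 17 genes were called lower in both strains and 1, lipia, was called higher in both. A further 5 were called in Select alone and 4 in Commercial alone. The share of all features called in both strains is not given here, so these counts stand without a baseline. The difference between the strains was tested as described further on. Without the 3 libraries, 17 genes were called in Select and 23 in Commercial. Over all features that fit called 9849 of 32412 in Select and 9521 of 32412 in Commercial. In a bulk sample fewer cells of a type and less RNA per cell cannot be told apart. The summed enterocyte list was lower at 65 dph in most libraries, but its genes were mixed. fabp2, vil1 and slc15a1a were mostly lower at 65 dph, and anpepa, cdx1 and cdx1b were mostly higher. The part of enterocytes in these results was not tested.

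**Figure D1:**
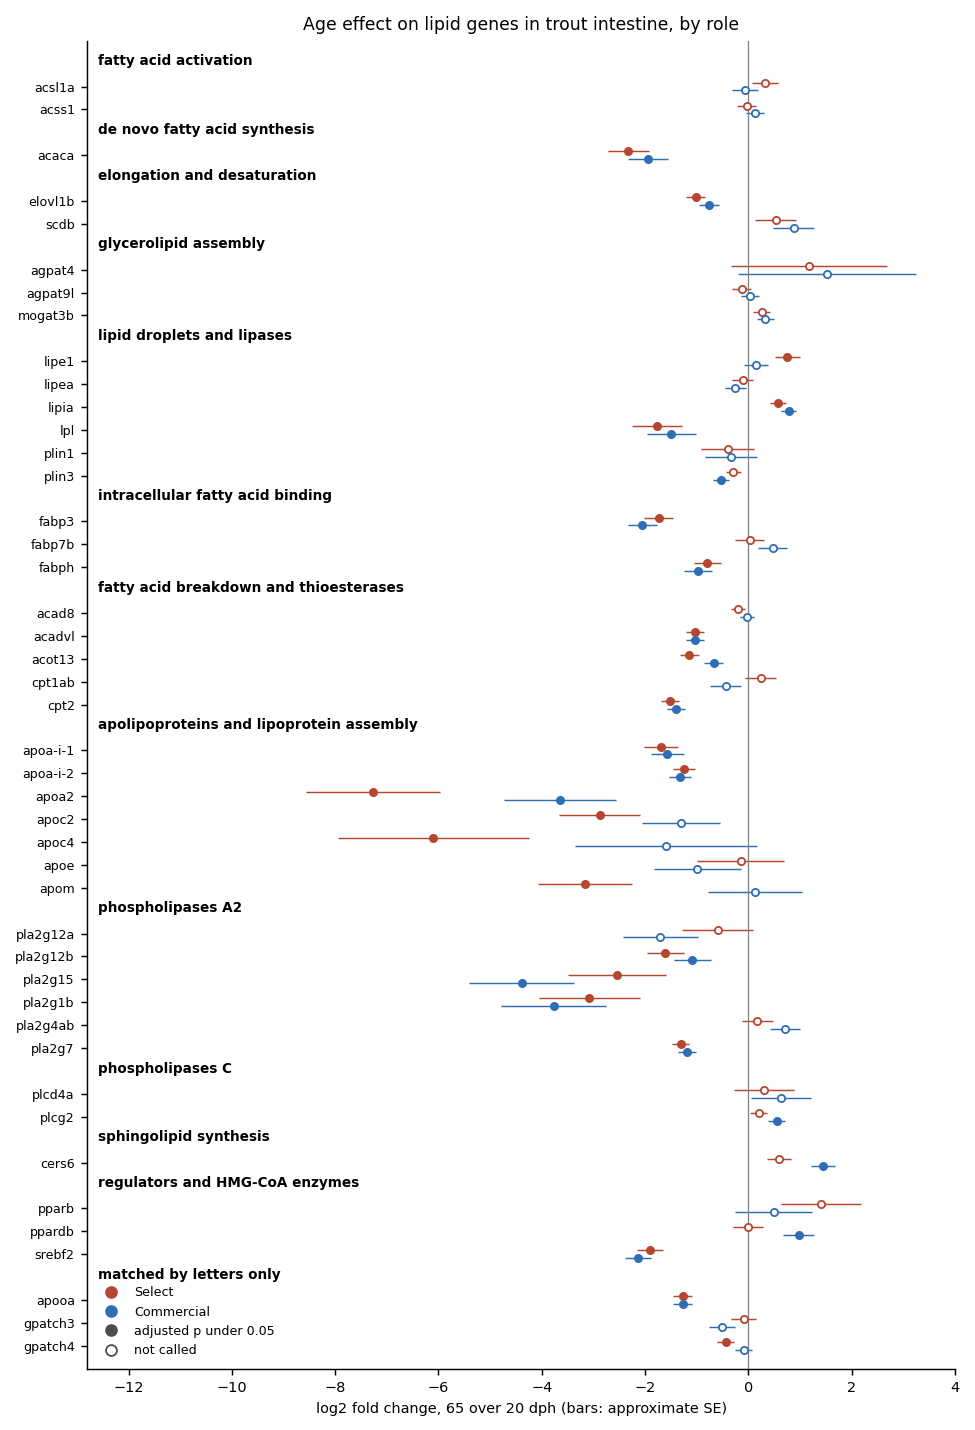
Log2 fold change of each of the 44 tested genes, 65 over 20 dph, in Select and in Commercial, grouped by role; filled points were called and bars are approximate standard errors. Most filled points lie left of 0, with lipia right of 0 in both strains and cers6 reaching 1.45 in Commercial.

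Acetyl-CoA carboxylase fell at 65 dph in both strains. The gene acaca encodes the enzyme that makes malonyl-CoA, the building block of fatty acid synthesis. Its levels were 16.7, 16.1, 8.37, 13.0 and 6.68 CPM in Select 65 dph, against 66.1, 35.7, 55.6, 41.2 and 105 CPM in Select 20 dph. In Commercial they were 23.8, 5.72, 19.7, 25.1 and 20.3 CPM at 65 dph and 73.5, 95.1, 87.4, 69.5 and 37.1 CPM at 20 dph. The ages did not overlap in either strain, and Commercial 65 dph replicate 2 was the lowest library of its group. The log2 fold change was -2.32 ± 0.39 in Select (adjusted p = 0.000186) and -1.94 ± 0.38 in Commercial (adjusted p = 0.000855); here and below the value after ± a fold change is an approximate standard error. Levels at 65 dph were thus 4.99-fold lower in Select and 3.83-fold lower in Commercial. Groups of 5 that do not overlap were found for 17 of the 44 genes in Select, 15 lower and 2 higher, and for 19 in Commercial, 15 lower and 4 higher, against 25.2% of all features in Select (13.6% lower, 11.6% higher) and 21.1% in Commercial (10.9% lower, 10.3% higher).

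The sterol regulator srebf2, which encodes a membrane-bound transcription factor, fell as well. It stood at 45.8, 43.2, 29.9, 37.8 and 28.0 CPM in Select 65 dph and at 142, 82.8, 107, 127 and 231 CPM in Select 20 dph. In Commercial it stood at 38.9, 26.9, 47.0, 56.1 and 44.7 CPM at 65 dph and at 220.1, 206, 217, 155 and 137 CPM at 20 dph. Every 65 dph library was below every 20 dph library of its strain. Log2 fold changes came to -1.90 ± 0.25 in Select (adjusted p = 2.12e-05) and -2.13 ± 0.25 in Commercial (adjusted p = 7.66e-06). The PPAR genes tested, pparb and ppardb, which encode fatty acid-sensing nuclear receptors, were low. pparaa and pparg had no transcripts in the quantified set, and the rule left out pparab. ppardb rose in Commercial, at 2.20 ± 0.519 CPM at 65 dph and 1.11 ± 0.268 CPM at 20 dph (mean ± SD, n = 5 each). Its log2 fold change there was 0.98 ± 0.30 (adjusted p = 0.0175), a call lost without Commercial 65 dph replicate 3 (adjusted p up to 0.0553). In Select that gene had a log2 fold change of 0.00 ± 0.29 (adjusted p = 0.994). pparb was not called in either strain, with log2 fold changes of 1.41 ± 0.77 in Select (adjusted p = 0.167) and 0.49 ± 0.75 in Commercial (adjusted p = 0.673); in Select it passed without Select 20 dph replicate 4 (adjusted p = 0.0298).

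Of the elongases and desaturases, elovl1b fell and scdb did not pass the test. elovl1b encodes an elongase of very-long-chain fatty acids. It had 214, 188, 164, 156 and 103 CPM in Select 65 dph and 313, 362, 329.7, 297 and 372 CPM in Select 20 dph. In Commercial the values were 186, 111, 224, 247 and 218 CPM at 65 dph and 339.8, 334, 321, 347 and 333 CPM at 20 dph. The ages were separate in both strains, and the 5 Commercial 20 dph libraries lay within 321 to 347 CPM. In log2 units the change was -1.02 ± 0.19 in Select (adjusted p = 0.000383) and -0.76 ± 0.19 in Commercial (adjusted p = 0.00422). scdb, the stearoyl-CoA desaturase that makes monounsaturated fatty acids, varied most at 65 dph. Select 65 dph libraries held 609, 133, 258, 120.1 and 124 CPM and Select 20 dph libraries 151, 159.5, 225, 174 and 154 CPM. Commercial libraries held 399, 133, 299, 367 and 479 CPM at 65 dph and 134, 212, 201, 223 and 142 CPM at 20 dph. The ages overlapped in both strains: 4 of the 5 Commercial 65 dph libraries were above every 20 dph library of their strain and replicate 2 was below them. Its log2 change was 0.53 ± 0.40 in Select (adjusted p = 0.337) and 0.88 ± 0.40 in Commercial (adjusted p = 0.109), and without Commercial 65 dph replicate 2 it was 1.07 ± 0.39 in Commercial (adjusted p = 0.0481). In Select, leaving out Select 65 dph replicate 1, the highest library, turned it to -0.13 ± 0.30 (adjusted p = 0.79). cidec, which encodes a droplet protein of fat-storing cells, had 98.4, 30.9, 53.9, 17.1 and 25.2 CPM in Select 65 dph and 51.3, 27.2, 87.0, 100.4 and 96.4 CPM in Commercial 65 dph, in Select in the same order of libraries as scdb, and lowest in the same Commercial library. Outside the lipid genes, 7 features matched the 11-gene adipocyte list, with summed levels of 144 to 272 CPM in Select 65 dph, 223 to 345 CPM in Select 20 dph, 121 to 255 CPM in Commercial 65 dph and 217 to 366 CPM in Commercial 20 dph. Other genes of that list did not follow scdb. cfd had 152, 240, 117, 124 and 225 CPM in Select 65 dph, in another order of libraries than scdb. In Commercial 65 dph cfd had 68.0, 224, 117, 140 and 138 CPM, highest in replicate 2, where scdb was lowest. aqp7 was also in another order than scdb in Select 65 dph. The adipocyte hormone genes adipoqb and lep were at 0 in all libraries but 1, lepb was at 0 in all, and the part of fat cells in the spread of scdb was not tested.

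**Figure D2:**
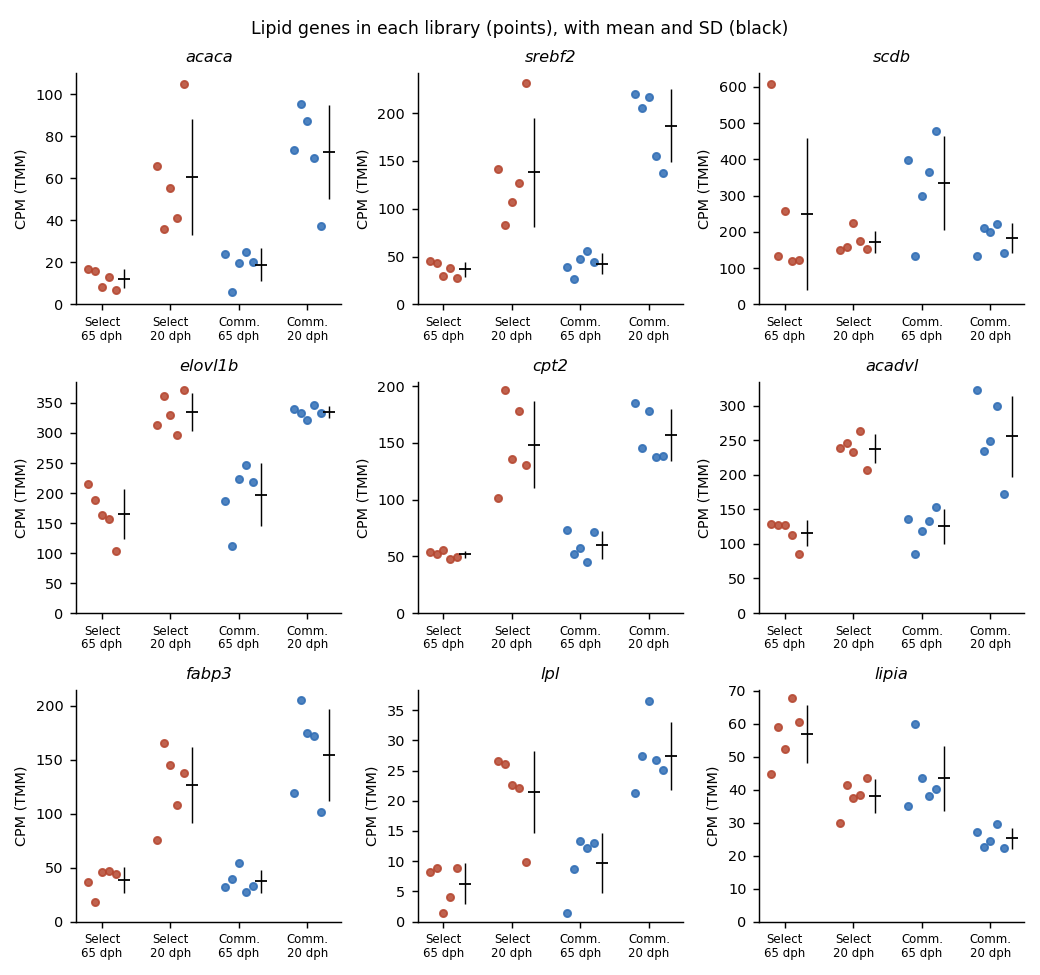
Level of 9 lipid genes in each library, as CPM of the TMM-scaled library, for Select 65 dph, Select 20 dph, Commercial 65 dph and Commercial 20 dph; points are libraries, black marks the mean and SD. The ages are separate in both strains for every gene shown but scdb, and lipia alone among the 8 is higher at 65 dph.

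The heart-type fatty acid-binding proteins fell at the later age. fabp3 had 37.0, 17.9, 45.9, 46.6 and 43.9 CPM in Select 65 dph, against 75.9, 166, 145, 108 and 138 CPM in Select 20 dph. It had 31.8, 39.6, 54.4, 27.2 and 33.1 CPM in Commercial 65 dph, against 119, 205, 175, 171 and 102 CPM in Commercial 20 dph. No library of one age reached the other in either strain, and Select 65 dph replicate 2 was the lowest of all. edgeR gave log2 fold changes of -1.73 ± 0.28 in Select (adjusted p = 0.000117) and -2.05 ± 0.28 in Commercial (adjusted p = 2.64e-05). The second heart-type gene, fabph, averaged 34.0 ± 10.5 CPM in Select 65 dph and 58.8 ± 17.3 CPM in Select 20 dph (SD, n = 5 each). In Commercial it averaged 37.5 ± 11.2 CPM at 65 dph and 73.6 ± 11.7 CPM at 20 dph (SD, n = 5 each). The ages overlapped in Select, where 1 library of 20 dph was at 28.6 CPM, and not in Commercial. The fitted log2 change was -0.79 ± 0.27 in Select (adjusted p = 0.0277) and -0.97 ± 0.27 in Commercial (adjusted p = 0.0096); the Select call was lost in 5 of the 10 fits that left out a library, Select 20 dph replicates 2, 3 and 4 and Select 65 dph replicates 3 and 4 (adjusted p up to 0.0721), and without the 2 libraries with liver transcripts, at -0.79 ± 0.30 (adjusted p = 0.0512). fabp7b, a brain-type member, was at 2.86 to 4.63 CPM in Select 65 dph and 2.93 to 4.64 CPM in Select 20 dph and was not called in either strain; in Commercial, at 3.30 to 4.86 CPM at 65 dph and 1.39 to 5.75 CPM at 20 dph, it passed without Commercial 20 dph replicate 5 (adjusted p = 0.0171).

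Of the 5 fatty acid breakdown and thioesterase genes tested, 3 were called lower at 65 dph in each strain: cpt2, acadvl and acot13. Among all features 17.9% were called lower in Select and 15.6% in Commercial. cpt2 encodes the carnitine palmitoyltransferase of the inner mitochondrial membrane. Its levels were 53.9, 52.0, 55.2, 47.7 and 49.8 CPM in Select 65 dph and 101, 196, 136, 178 and 130.2 CPM in Select 20 dph. In Commercial they were 73.2, 51.8, 57.4, 44.6 and 71.5 CPM at 65 dph and 185, 146, 178, 138 and 139 CPM at 20 dph. The 65 dph libraries formed a narrow band below all 20 dph libraries. On the log2 scale it changed by -1.52 ± 0.17 in Select (adjusted p = 4.43e-06) and -1.40 ± 0.17 in Commercial (adjusted p = 8.45e-06), and the Select value had the lowest adjusted p of the 44 genes. acadvl, the very-long-chain acyl-CoA dehydrogenase, had 116 ± 18.7 CPM in Select 65 dph and 238 ± 20.8 CPM in Select 20 dph (mean ± SD, n = 5 each). It had 126 ± 25.3 CPM in Commercial 65 dph and 256 ± 58.9 CPM in Commercial 20 dph (mean ± SD, n = 5 each). The ages did not overlap, and the log2 fold changes were -1.03 ± 0.17 in Select (adjusted p = 0.00016) and -1.03 ± 0.17 in Commercial (adjusted p = 0.000184). acot13, an acyl-CoA thioesterase, had log2 fold changes of -1.14 ± 0.18 in Select (adjusted p = 8.89e-05) and -0.67 ± 0.18 in Commercial (adjusted p = 0.00751). cpt1ab, which encodes the enzyme of the outer membrane step, was not called, at 0.24 ± 0.30 in Select (adjusted p = 0.586) and -0.44 ± 0.30 in Commercial (adjusted p = 0.284). acad8, a dehydrogenase of valine breakdown, was not called either, at -0.20 ± 0.14 in Select (adjusted p = 0.279) and -0.02 ± 0.14 in Commercial (adjusted p = 0.928).

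None of the 2 fatty acid activation genes and 3 glycerolipid assembly genes tested was called by age in either strain with all libraries. Over all features 34.3% were called in Select and 30.1% in Commercial. The rule matched 6 activation and 7 assembly symbols, and the rest, among them acsl5, dgat1a, gpat2 and lpin1, were not tested. acss1, the mitochondrial acetyl-CoA synthetase, was at 95.3 to 132 CPM in Select 65 dph and 72.1 to 152 CPM in Select 20 dph, with a log2 fold change of -0.03 ± 0.18. In Commercial it was at 93.5 to 132 CPM at 65 dph and 77.4 to 143 CPM at 20 dph, with a log2 fold change of 0.13 ± 0.18. acsl1a, a long-chain acyl-CoA synthetase, had log2 fold changes of 0.33 ± 0.25 in Select and -0.07 ± 0.25 in Commercial. agpat9l, a glycerol-3-phosphate acyltransferase, had -0.13 ± 0.18 in Select and 0.03 ± 0.18 in Commercial. mogat3b, which joins a fatty acid to monoacylglycerol, had 0.26 ± 0.17 in Select and 0.33 ± 0.17 in Commercial. Without the 3 libraries mogat3b was called in Commercial, at 0.46 ± 0.16 (adjusted p = 0.0391). agpat4, an acylglycerophosphate acyltransferase, was at 0 in 12 of the 20 libraries.

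Of the 7 apolipoprotein genes tested, 6 were called lower at 65 dph in Select and 3 in Commercial. Over all features, 17.9% were called lower in Select and 15.6% in Commercial. The Select calls of apom and apoc4 were lost without Select 20 dph replicate 1, as given below. That of apoc2 held narrowly without this library and was lost without both libraries with liver transcripts. Both apoa-I genes, which encode the main protein of high-density lipoprotein, were called in both strains. apoa-i-1 had 1899.5, 1977, 2014, 1320.2 and 1229 CPM in Select 65 dph and 9642, 5221, 4149, 5748 and 2400.1 CPM in Select 20 dph. In Commercial it had 2215, 1110.3, 2490.3, 2412 and 3531 CPM at 65 dph and 8091, 5124, 5836, 8727 and 7031 CPM at 20 dph. The 65 dph libraries were below all 20 dph libraries in both strains, and Select 20 dph replicate 1, the library with liver transcripts, was the highest. The log2 fold change was -1.69 ± 0.32 in Select (adjusted p = 0.000541) and -1.57 ± 0.32 in Commercial (adjusted p = 0.00112); without that library the Select value was -1.38 ± 0.29 (adjusted p = 0.00164). apoa-i-2 had 3031, 2605, 2864, 2291 and 2653 CPM in Select 65 dph and 4116, 7734, 7560.3, 7478 and 4789 CPM in Select 20 dph. Commercial libraries had 3761, 2388, 3873, 2775 and 4899 CPM at 65 dph and 10072, 6477, 9729, 9909.5 and 8138 CPM at 20 dph. These groups did not overlap either, and here replicate 1 was the lowest Select 20 dph library. Log2 fold changes came to -1.24 ± 0.21 in Select (adjusted p = 0.000197) and -1.32 ± 0.21 in Commercial (adjusted p = 0.000117).

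apoa2, a second protein of high-density lipoprotein, gave the largest fold change of the tested lipid genes in Select. Its levels were 3.25, 25.1, 7.01, 6.56 and 6.21 CPM in Select 65 dph and 6647, 170.1, 276, 274 and 31.7 CPM in Select 20 dph. They were 58.3, 8.80, 33.2, 20.9 and 43.1 CPM in Commercial 65 dph and 551, 221, 196, 475 and 620.4 CPM in Commercial 20 dph. The ages did not overlap in either strain, although Select 20 dph replicate 5 came close to the highest 65 dph library. In log2 units the change was -7.27 ± 1.30 in Select (adjusted p = 0.000323) and -3.65 ± 1.09 in Commercial (adjusted p = 0.0166). Without Select 20 dph replicate 1 the Select value was -4.29 ± 0.70 (adjusted p = 0.000228). The liver list summed to 25.2 to 115 CPM in the other Select 20 dph libraries and to 6.60 to 22.4 CPM in Select 65 dph, and its part in the remaining difference was not tested.

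The Select age calls of apom and apoc4 rested on that 1 library. apom, which encodes a carrier of sphingosine 1-phosphate in lipoproteins, had 2.73, 2.02, 2.79, 6.56 and 3.75 CPM in Select 65 dph and 139, 2.88, 2.83, 5.49 and 9.83 CPM in Select 20 dph. The log2 fold change was -3.17 ± 0.91 with all libraries (adjusted p = 0.0117) and -0.57 ± 0.48 without replicate 1 (adjusted p = 0.398). apoc4 had 0.769, 0.304, 0.884, 1.43 and 0.820 CPM in Select 65 dph and 291, 0.125, 0.654, 0.488 and 0 CPM in Select 20 dph. Its change on the log2 scale was -6.10 ± 1.85 (adjusted p = 0.0159) and turned to 1.35 ± 1.15 without replicate 1 (adjusted p = 0.405). apoc2, the cofactor of lipoprotein lipase, had 19.6, 0, 7.96, 8.82 and 24.6 CPM in Select 65 dph and 279, 64.3, 30.0, 56.2 and 18.1 CPM in Select 20 dph. The gene's log2 fold change was -2.88 ± 0.79 in Select (adjusted p = 0.009), and -1.79 ± 0.67 without replicate 1 (adjusted p = 0.0494); without both that library and Commercial 20 dph replicate 5, the other with liver transcripts, the call was lost, at -1.80 ± 0.68 (adjusted p = 0.0536). In Commercial these 3 genes were not called: log2 fold changes were 0.14 ± 0.91 for apom (adjusted p = 0.931), -1.60 ± 1.76 for apoc4 (adjusted p = 0.544) and -1.30 ± 0.76 for apoc2 (adjusted p = 0.215). Without Commercial 20 dph replicate 5 that of apoc4 turned to 1.08 ± 2.13 (adjusted p = 0.755). apoe, which encodes the ligand of lipoprotein receptors, was not called, at -0.15 ± 0.84 in Select (adjusted p = 0.913) and -0.99 ± 0.84 in Commercial (adjusted p = 0.408). Its highest 20 dph levels, 38.5 CPM in Select replicate 1 and 87.7 CPM in Commercial replicate 5, were in the libraries with the most liver list transcripts. Without these 2 libraries both values of apoe changed sign, to 0.96 ± 0.56 (adjusted p = 0.208) in Select and 0.60 ± 0.55 (adjusted p = 0.449) in Commercial. apof, in humans a lipid transfer inhibitor, did not pass the filter: of 526 counts in Select 20 dph all were in replicate 1, and the other groups held 1 count in Select 65 dph, 0 in Commercial 65 dph and 4 in Commercial 20 dph.

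**Figure D3:**
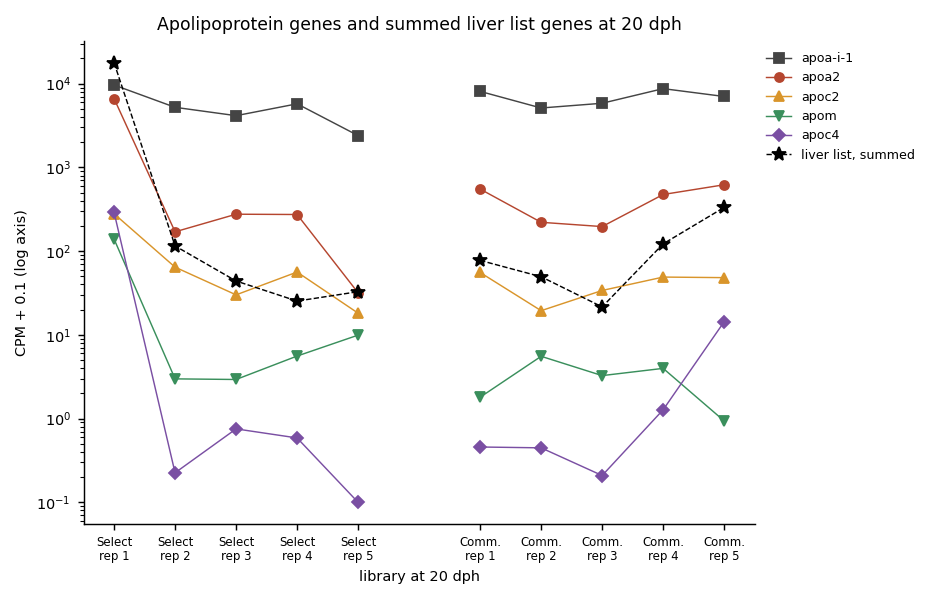
Level of 5 apolipoprotein genes and summed level of the 8 liver list genes in the 10 libraries of 20 dph, Select on the left and Commercial on the right, as CPM + 0.1 on a log axis. Select replicate 1 carries the highest liver list sum, 17800 CPM, and the highest apoa2, apoc2, apoc4 and apom levels.

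Among the lipases lpl fell and lipia rose. lpl encodes lipoprotein lipase, which frees fatty acids from circulating triacylglycerol. It had 8.20, 8.90, 1.43, 4.05 and 8.90 CPM in Select 65 dph and 26.5, 26.1, 22.6, 22.1 and 9.83 CPM in Select 20 dph. Its Commercial levels were 1.46, 8.69, 13.3, 12.2 and 13.1 CPM at 65 dph and 21.3, 27.3, 36.5, 26.7 and 25.2 CPM at 20 dph. The ages did not overlap, and 1 library of each strain, Select 20 dph replicate 5 and Commercial 65 dph replicate 1, was far below the rest of its group. edgeR gave log2 fold changes of -1.77 ± 0.48 in Select (adjusted p = 0.00804) and -1.49 ± 0.47 in Commercial (adjusted p = 0.0224); the Commercial call was lost without Commercial 20 dph replicate 3 (adjusted p up to 0.0509) and without the 3 libraries that stood apart (adjusted p = 0.0564). lipia encodes lipase I, known in mammals for cutting phosphatidic acid into lysophosphatidic acid. It had 44.8, 59.0, 52.3, 67.9 and 60.4 CPM in Select 65 dph and 29.8, 41.5, 37.4, 38.5 and 43.4 CPM in Select 20 dph. The Commercial values were 35.1, 60.0, 43.5, 38.2 and 40.3 CPM at 65 dph and 27.3, 22.7, 24.4, 29.5 and 22.3 CPM at 20 dph. Each 65 dph library was above each 20 dph library of its strain. On the log2 scale it changed by 0.58 ± 0.15 in Select (adjusted p = 0.00528) and 0.78 ± 0.15 in Commercial (adjusted p = 0.000611), which is 1.49-fold higher in Select and 1.72-fold higher in Commercial.

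The hormone-sensitive lipase genes, which act on stored triacylglycerol, gave 1 call in 1 strain. lipe1 rose in Select, with 7.74 ± 1.10 CPM at 65 dph and 4.55 ± 1.42 CPM at 20 dph (mean ± SD, n = 5 each). The libraries of the ages did not overlap in Select, and the log2 fold change was 0.76 ± 0.24 (adjusted p = 0.0191), lost without Select 20 dph replicate 1 or replicate 2 (adjusted p up to 0.0544) and without the 3 libraries (adjusted p = 0.0997). In Commercial it was 0.15 ± 0.24 (adjusted p = 0.685). The more abundant lipea was not called, at -0.11 ± 0.20 in Select (adjusted p = 0.699) and -0.25 ± 0.20 in Commercial (adjusted p = 0.375). plin3, the perilipin that coats small droplets in many cells, fell in Commercial, with 16.3 ± 1.99 CPM at 65 dph and 23.4 ± 2.50 CPM at 20 dph (mean ± SD, n = 5 each). The Commercial ages did not overlap, and the log2 fold changes were -0.29 ± 0.15 in Select (adjusted p = 0.137) and -0.53 ± 0.15 in Commercial (adjusted p = 0.0115). In Select plin3 passed without Select 20 dph replicate 1 (adjusted p = 0.0471). plin1, the perilipin of fat cells, was at 1.16 to 5.97 CPM in Select 65 dph and 1.60 to 8.65 CPM in Select 20 dph and was not called. plin6, a perilipin found in fish, had 0 counts in every library.

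Of the 6 phospholipase A2 genes tested, 4 were called lower at 65 dph in each strain: pla2g7, pla2g12b, pla2g15 and pla2g1b. The share of all features called lower was 17.9% in Select and 15.6% in Commercial. pla2g7 encodes the platelet-activating factor acetylhydrolase. Its levels were 36.6, 27.6, 34.6, 26.8 and 26.5 CPM in Select 65 dph and 59.9, 88.6, 72.4, 76.4 and 78.9 CPM in Select 20 dph. They were 50.1, 26.2, 35.3, 48.0 and 41.1 CPM in Commercial 65 dph and 74.8, 84.9, 77.4, 105 and 117 CPM in Commercial 20 dph. The ages were separate in both strains. The log2 fold change was -1.31 ± 0.17 in Select (adjusted p = 2.18e-05) and -1.19 ± 0.17 in Commercial (adjusted p = 5.22e-05). pla2g12b encodes a family member without catalytic activity that in mice is needed for the secretion of liver lipoproteins. It averaged 23.3 ± 13.1 CPM in Select 65 dph and 71.1 ± 14.5 CPM in Select 20 dph (SD, n = 5 each). In Commercial it averaged 29.0 ± 11.1 CPM at 65 dph and 61.3 ± 21.9 CPM at 20 dph (SD, n = 5 each). The ages overlapped in Commercial and not in Select. Log2 fold changes came to -1.61 ± 0.36 in Select (adjusted p = 0.00232) and -1.08 ± 0.36 in Commercial (adjusted p = 0.0294); the Commercial call was lost in 4 of the 10 fits that left out a library, Commercial 20 dph replicates 4 and 5 and Commercial 65 dph replicates 1 and 2 (adjusted p up to 0.0891). That call was also lost without the 2 libraries with liver transcripts, at -1.03 ± 0.40 (adjusted p = 0.0597).

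The digestive phospholipase pla2g1b, made by the exocrine pancreas, had 7.26, 40.0, 5.37, 53.2 and 20.3 CPM in Select 65 dph and 315, 609.8, 28.2, 69.8 and 35.2 CPM in Select 20 dph. In Commercial it had 3.78, 20.6, 27.9, 17.7 and 28.2 CPM at 65 dph and 298, 103, 15.7, 646 and 280.3 CPM at 20 dph. The 20 dph libraries spread widely and overlapped with 65 dph in both strains. In log2 units the change was -3.08 ± 0.98 in Select (adjusted p = 0.0209) and -3.77 ± 1.01 in Commercial (adjusted p = 0.00857), and leaving out Select 20 dph replicate 2 ended the Select call (adjusted p up to 0.0879), as did leaving out the 3 libraries, at -2.81 ± 1.17 (adjusted p = 0.0832). Of the 15 exocrine pancreas list genes only cpa5, a carboxypeptidase, was found besides pla2g1b itself. It was at 467, 913, 30.4, 182 and 85.8 CPM in Select 20 dph and 543, 128, 18.1, 926 and 429.7 CPM in Commercial 20 dph, with the libraries in the same order as for pla2g1b. Its 65 dph level was 8.78 to 63.1 CPM in Select and 7.38 to 47.0 CPM in Commercial, and the part of pancreatic tissue in the fall of pla2g1b was not tested.

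pla2g15, the lysosomal phospholipase, was raised in the libraries with liver transcripts. It had 2.39, 2.93, 1.77, 1.19 and 4.68 CPM in Select 65 dph and 49.6, 9.02, 6.43, 4.88 and 5.90 CPM in Select 20 dph. Commercial libraries had 1.84, 3.41, 1.60, 1.25 and 1.59 CPM at 65 dph and 6.36, 7.18, 4.91, 18.2 and 169 CPM at 20 dph. The ages did not overlap in either strain, and the highest levels were in Commercial 20 dph replicate 5 and Select 20 dph replicate 1. The liver list sums of these libraries were in the opposite order, at 333 CPM in the Commercial library and 17800 CPM in the Select library. The part of liver tissue in the level of pla2g15 was not tested. edgeR gave log2 fold changes of -2.54 ± 0.95 in Select (adjusted p = 0.0457) and -4.39 ± 1.02 in Commercial (adjusted p = 0.00311). The Commercial value was -2.23 ± 0.66 without Commercial 20 dph replicate 5 (adjusted p = 0.0165), and the Select value was -1.35 ± 0.87 without Select 20 dph replicate 1 (adjusted p = 0.26). Without both of these libraries the Select call held, at -1.34 ± 0.42 (adjusted p = 0.0213). The Select call was lost in 7 of the 10 fits that left out a library, each Select 65 dph replicate and Select 20 dph replicates 1 and 2. pla2g4ab, the cytosolic enzyme that releases arachidonic acid, and pla2g12a were not called by age. The log2 fold change of pla2g4ab was 0.17 ± 0.30 in Select (adjusted p = 0.694) and 0.71 ± 0.29 in Commercial (adjusted p = 0.0755); in Commercial it was called without Commercial 20 dph replicate 5, at 0.96 ± 0.29 (adjusted p = 0.0187), and without Commercial 65 dph replicate 2, at 0.91 ± 0.25 (adjusted p = 0.0111). pla2g12a, a secreted enzyme, reached at most 3.01 CPM in any library, and in Commercial its log2 fold change of -1.70 ± 0.73 (adjusted p = 0.0895) passed without Commercial 65 dph replicate 4 (adjusted p = 0.028).

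cers6 and plcg2 rose in Commercial. cers6 encodes a ceramide synthase, which joins a fatty acid to a sphingoid base. It had 5.89, 7.28, 4.08, 7.27 and 6.56 CPM in Select 65 dph and 4.01, 3.51, 3.92, 3.54 and 5.65 CPM in Select 20 dph. Its Commercial levels were 8.44, 6.38, 8.74, 5.24 and 3.98 CPM at 65 dph and 2.33, 2.55, 3.05, 2.00 and 2.04 CPM at 20 dph. All Commercial 65 dph libraries were above the 20 dph libraries, and the Select ages overlapped. Its log2 change was 0.59 ± 0.23 in Select (adjusted p = 0.0526) and 1.45 ± 0.23 in Commercial (adjusted p = 0.000133); the Select value passed without Select 20 dph replicate 5 or Select 65 dph replicate 3 (adjusted p = 0.0256 at the lowest). plcg2, the phospholipase C of immune receptor signalling, had 74.9, 78.2, 76.2, 151 and 75.9 CPM in Commercial 65 dph and 63.5, 58.5, 58.8, 63.4 and 66.7 CPM in Commercial 20 dph. The ages did not overlap, and replicate 4 was the highest. Its log2 fold change was 0.20 ± 0.17 in Select (adjusted p = 0.384) and 0.55 ± 0.17 in Commercial (adjusted p = 0.0185). The 6 features found for the T cell list were cd3e, cd8a, il7r, prf1, prf1.3 and prf1.5, and its entries cd4 and zap70 were not found. These 6 features summed to 44.9 to 73.3 CPM in Select 65 dph, 11.3 to 21.3 CPM in Select 20 dph, 49.3 to 64.3 CPM in Commercial 65 dph and 8.57 to 12.1 CPM in Commercial 20 dph. Of them, prf1.3 ran from 0.256 to 2.02 CPM in Select 65 dph and from 0.980 to 6.22 CPM in Select 20 dph. Of the 4 macrophage list entries only mpeg1 was found, as mpeg1.1. It was at 33.5 to 43.2 CPM in Select 65 dph and 19.9 to 33.9 CPM in Select 20 dph. In Commercial it was at 33.1 to 45.7 CPM at 65 dph and 14.0 to 25.8 CPM at 20 dph. The part of T cells, macrophages or other immune cells in the level of plcg2 was not tested. plcd4a, a second phospholipase C gene, reached at most 2.52 CPM in any library and was not called.

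The 3 genes matched by letters only included further calls. apooa fell in both strains, with log2 fold changes of -1.27 ± 0.18 in Select (adjusted p = 3.86e-05) and -1.27 ± 0.18 in Commercial (adjusted p = 3.88e-05). gpatch4 fell in Select, at -0.44 ± 0.16 (adjusted p = 0.0414), a call lost in 7 of the 10 fits that left out a library, all but those without Select 20 dph replicates 4 and 5 and Select 65 dph replicate 2 (adjusted p up to 0.115). gpatch3 was not called, at -0.09 ± 0.24 in Select (adjusted p = 0.818) and -0.51 ± 0.25 in Commercial (adjusted p = 0.13). The 11 genes that did not pass the filter were plin6, cers4a, apof, plce1, cpt1, elovl1a, plcd1a, acsl2, hmgcll1, elovl8a and fabp4b. Apart from apof in Select 20 dph replicate 1, none of them exceeded 1.43 CPM in any library.

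Genes of lipid metabolism outside the symbol rule were mostly lower at 65 dph too where called. Of 90 listed symbols 38 were found and 33 were tested. In Select 4 were called higher and 18 lower at 65 dph (median log2 change -0.71), against 16.4% higher and 17.9% lower of all features. In Commercial 2 were called higher and 18 lower (median -0.55), against 14.5% higher and 15.6% lower of all features. The list was drawn up with earlier results of these data known. insig1, which holds the SREBF proteins in the endoplasmic reticulum, had 17.7, 16.9, 21.0, 27.7 and 17.1 CPM in Select 65 dph and 69.4, 77.1, 60.7, 57.3 and 78.1 CPM in Select 20 dph. The Commercial values were 28.3, 20.1, 29.5, 26.1 and 35.6 CPM at 65 dph and 109, 108, 80.8, 103 and 193 CPM at 20 dph. All 65 dph libraries were below the 20 dph libraries of their strain, with log2 fold changes of -1.77 ± 0.21 in Select (adjusted p = 8.07e-06) and -2.09 ± 0.21 in Commercial (adjusted p = 1.5e-06). hsd17b4, an enzyme of peroxisomal fatty acid oxidation, had log2 fold changes of -1.36 ± 0.12 in Select (adjusted p = 8.83e-07) and -1.57 ± 0.12 in Commercial (adjusted p = 2.03e-07). etnk1, the ethanolamine kinase of phosphatidylethanolamine synthesis, rose in both strains, at 0.88 ± 0.15 in Select (adjusted p = 0.000165) and 0.92 ± 0.15 in Commercial (adjusted p = 0.000117). nr1h3, the oxysterol receptor gene, rose too, at 0.40 ± 0.14 in Select (adjusted p = 0.0273) and 0.49 ± 0.14 in Commercial (adjusted p = 0.0104).

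Between the strains at 20 dph no lipid gene passed the test. edgeR called 0 of the 44 genes, against 0.159% of all features, and 7 had an unadjusted p under 0.05, against 10.3% of all features; the lowest adjusted p was 0.125. DESeq2 called 2, lipia and apom, against 442 of the 32012 features it tested. The median log2 fold change, Select over Commercial, was -0.08. Groups did not overlap for lipia and cers6, both higher in Select, against 2.19% of all features. lipia had 29.8, 41.5, 37.4, 38.5 and 43.4 CPM in Select 20 dph and 27.3, 22.7, 24.4, 29.5 and 22.3 CPM in Commercial 20 dph. The lowest Select library lay just above the highest Commercial library. The log2 fold change was 0.59 ± 0.15 (adjusted p = 0.125); over the fits that left out 1 library the adjusted p ran from 0.0801 to 0.226. Without the 3 libraries lipia was called, at 0.68 ± 0.12 (adjusted p = 0.0282). cers6 had 4.01, 3.51, 3.92, 3.54 and 5.65 CPM in Select 20 dph and 2.33, 2.55, 3.05, 2.00 and 2.04 CPM in Commercial 20 dph. All Select libraries were above the Commercial ones, with a log2 fold change of 0.78 ± 0.23 (adjusted p = 0.205). cpt1ab had 10.5, 3.63, 14.5, 5.36 and 14.1 CPM in Select 20 dph and 19.6, 14.9, 15.6, 21.9 and 14.4 CPM in Commercial 20 dph. The strains overlapped narrowly, and the log2 fold change was -0.84 ± 0.30 (adjusted p = 0.3). acot13 had a log2 fold change of 0.48 ± 0.17 (adjusted p = 0.317).

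The strain values of 3 apolipoprotein genes at 20 dph turned on Select replicate 1, the library with liver transcripts. apom had 139, 2.88, 2.83, 5.49 and 9.83 CPM in Select 20 dph and 1.70, 5.45, 3.16, 3.88 and 0.839 CPM in Commercial 20 dph. The fitted log2 change was 3.41 ± 0.93 (adjusted p = 0.162), and 0.81 ± 0.48 without Select replicate 1 (adjusted p = 0.592). That of apoc4 was 4.18 ± 1.64 (adjusted p = 0.363) and changed sign to -3.28 ± 1.19 without the library (adjusted p = 0.316). apoa2 likewise gave 1.84 ± 1.01 with it (adjusted p = 0.573) and -1.13 ± 0.65 without it (adjusted p = 0.566).

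**Figure D4:**
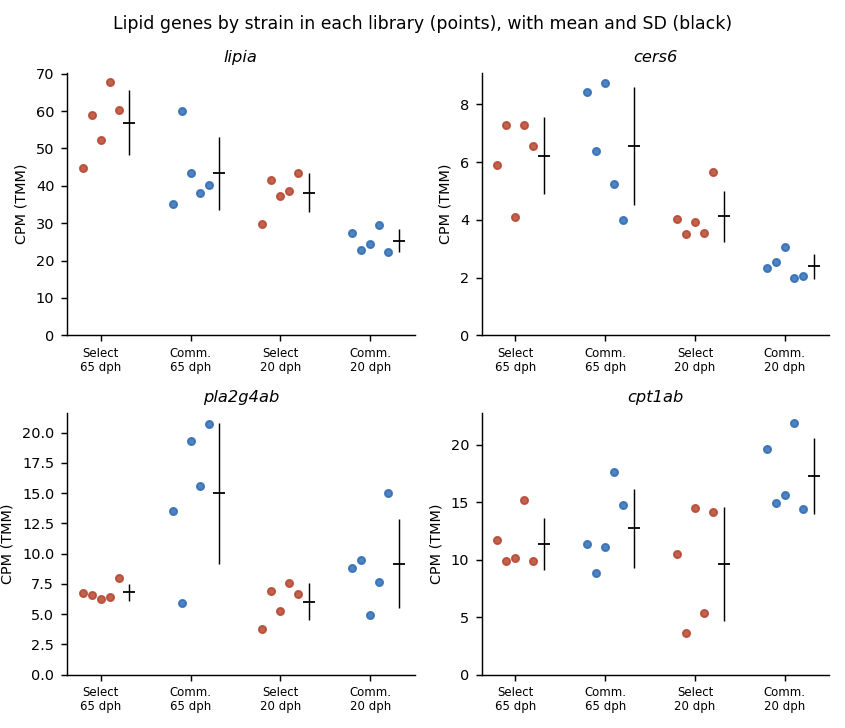
Level of lipia, cers6, pla2g4ab and cpt1ab in each library as CPM, with Select beside Commercial at 65 dph and at 20 dph; points are libraries, black marks the mean and SD. The strains are separate at 20 dph for lipia and cers6, and pla2g4ab at 65 dph lies within 6.26 to 7.96 CPM in Select and 5.94 to 20.7 CPM in Commercial.

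At 65 dph the strains also gave 0 calls among the 44 genes with edgeR, as among all features, of which 0% were called. Here 4 genes had an unadjusted p under 0.05 with edgeR, against 6.22% of all features. DESeq2 called 0, against 121 of the 32012 features it tested. No gene had groups that did not overlap, against 0.998% of all features. The median log2 fold change was -0.15. pla2g4ab had 6.75, 6.58, 6.26, 6.44 and 7.96 CPM in Select 65 dph and 13.5, 5.94, 19.3, 15.6 and 20.7 CPM in Commercial 65 dph. The Select libraries were close together, and 4 Commercial libraries were above them while replicate 2 was below. Its log2 change was -1.14 ± 0.30 (adjusted p = 0.403), and without Commercial replicate 2 it was -1.34 ± 0.25 (adjusted p = 0.029). lipia had 44.8, 59.0, 52.3, 67.9 and 60.4 CPM in Select 65 dph and 35.1, 60.0, 43.5, 38.2 and 40.3 CPM in Commercial 65 dph. It was highest in a Select library and overlapped between the strains, at a log2 fold change of 0.39 ± 0.15 (adjusted p = 0.711). The remaining genes of lowest p were gpatch3, at 0.65 ± 0.25 (adjusted p = 0.711), pla2g7, at -0.40 ± 0.17 (adjusted p = 0.77), pla2g12a, at 1.49 ± 0.73 (adjusted p = 0.819), and apoa-i-2, at -0.40 ± 0.21 (adjusted p = 0.837).

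No difference between the strains in the age effect passed the test among the 44 genes. The interaction term called 0 with edgeR, against 0% of all features, and 0 with DESeq2, against 66 of 32012 features. With edgeR 4 genes had an unadjusted p under 0.05, against 5.54% of all features. cers6 had the lowest p, 0.0153, with a difference of log2 fold changes, Select minus Commercial, of -0.86 ± 0.32 (adjusted p = 0.881). For apom it was -3.31 ± 1.27 (adjusted p = 0.881) and for apoa2 -3.62 ± 1.45 (adjusted p = 0.881); without Select 20 dph replicate 1 they were -0.70 ± 0.66 (adjusted p = 0.881) and -0.64 ± 0.88 (adjusted p = 0.923). For ppardb it was -0.98 ± 0.42, for acot13 -0.47 ± 0.25 and for lipe1 0.61 ± 0.34, with adjusted p of 0.881, 0.89 and 0.89. The 9 genes called in 1 strain alone are therefore not shown to differ between the strains.

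Per transcript length, the lipid genes spanned several orders of magnitude. The 20 libraries averaged 7381 TPM, a level scaled by transcript length and depth, for apoa-i-2 and 5382 TPM for apoa-i-1. apoa2 averaged 869.6 TPM, but only 24.8 TPM in Select 65 dph and 78.3 TPM in Commercial 65 dph, and Select 20 dph replicate 1 alone reached 11697 TPM. Over the other 19 libraries apoa2 averaged 299.7 TPM, below fabp3 with 357 TPM. Over all 20 libraries fabp3 had 352 TPM, pla2g1b 317 TPM, elovl1b 173 TPM, fabph 162 TPM and scdb 111 TPM. Single-library levels of neighbours in this order overlapped: fabp3 ran from 96.8 to 805 TPM and elovl1b from 89.1 to 243 TPM.

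The most abundant gene, apoa-i-2, was quantified as 2 transcripts, a curated RefSeq one of 1160 bases and a predicted one of 1175 bases. The curated transcript took 65.8% to 69.2% of the gene's counts in 7 libraries and 27.1% to 32.1% in the other 13, with no library between. Libraries above 50% were 4 of 5 in Select 65 dph, 1 of 5 in Select 20 dph, 2 of 5 in Commercial 65 dph and 0 of 5 in Commercial 20 dph. These 2 sets of libraries were read from the data and were not compared further, and the split does not enter the gene's summed count.

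**Figure D5:**
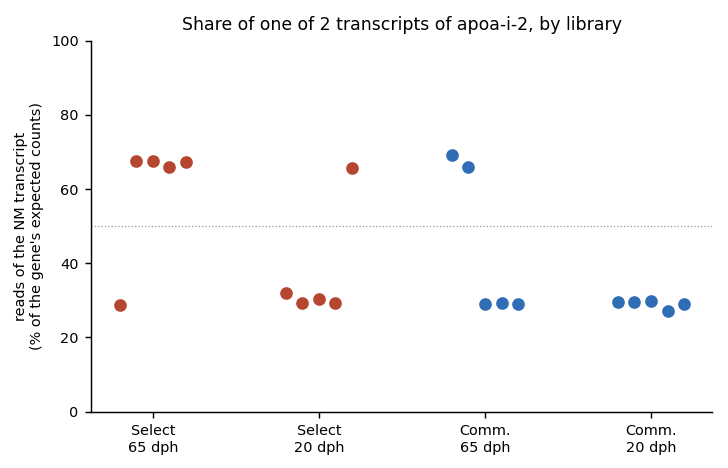
Share of the curated transcript among the expected counts of apoa-i-2, in percent, for the 5 libraries of each group; points are libraries and the dotted line is at 50%. The libraries fall between 27.1% and 32.1% or between 65.8% and 69.2%.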

How the data were processed

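Poly(A) RNA of whole intestine was sequenced as stranded paired-end libraries, per the labels. The authors deposited 1 table per library of 78931 transcripts with expected counts (estimated counts, of which 34.0% were not within 0.001 of a whole number) and TPM, per the file headers; Salmon 1.2.1 made them, per the submitters' processing notes. Their transcript release and genome build: not given in the sources used here. Accessions were paired, without version, with the RefSeq table of trout genes: 42376 transcripts matched, holding 66.5% of reads, and genes with a symbol held 23.4%. The other transcripts stayed as features of their own. Of the 93 symbols by rule, 38 are not analysed here. Counts were summed per gene to 61670 features and rounded, and a filter by group (edgeR filterByExpr) kept 32166.

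The test was edgeR 4.0.16 (R 4.3.3, limma 3.58.1), quasi-likelihood with TMM scaling, 1 mean per group over all 20 libraries and Benjamini-Hochberg adjustment over all features; the script was tested on simulated data. Levels are CPM of the TMM-scaled library, TPM only where genes are compared with each other, and the approximate SE is the log2 fold change divided by the root of F. Estimated counts divide reads between similar sequences, so levels within the pairs apoa-i-1 and apoa-i-2, fabp3 and fabph, and lipe1 and lipea are uncertain. Depth of 7314588 to 13682738 counts limits the genes of low level. Alternatives were DESeq2 1.42.0, RLE scaling, limma-voom, no filter, a filter of 10 counts in 10 libraries, effective lengths as an offset, a block, and fits without libraries. The 3 libraries that stood apart and the 2 libraries with liver transcripts were chosen after seeing the data. The genes and lists were chosen with earlier results of these data known. By age the text names the 12 largest called changes each way with mean log2 CPM of 1 or more, between strains the 6 lowest p, and per role group up to 4 genes of highest level; other members are named to account for the list, after their values were seen. Same-numbered libraries did not deviate together (correlations of -0.09 to 0.081), and no 2 libraries of a group shared more than 1.6% identical counts among counts over 50. Sequences are not printed. A gene of the wider lipid list is not reported here.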

Additional observations from a re-analysis of the deposited data

Results flagged for a closer look

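Dixon's test was run on the gap over the range in log2 CPM. In 18 of 176 groups of 5 libraries (44 genes in 4 groups), 1 library lay far from the others by this test. Chance flags about 1 in 20 groups. The values given are CPM, on which libraries that were not flagged can also stand far out. In Select 20 dph replicate 1, apom at 139 against 2.83 to 9.83 and apoa2 at 6647 against 31.7 to 276 were not flagged. In Commercial 65 dph replicate 2, 4 genes were out: acaca at 5.72 against 19.7 to 25.1, agpat9l at 11.5 against 16.7 to 19.4, lipea at 20.0 against 28.7 to 31.9 and acot13 at 10.1 against 6.48 to 7.16. In Select 20 dph replicate 5, 4 were out as well: fabph at 28.6 against 60.5 to 69.7, lpl at 9.83 against 22.1 to 26.5, pla2g12b at 45.8 against 72.9 to 81.3 and cers6 at 5.65 against 3.51 to 4.01. In Select 20 dph replicate 1, the library with liver transcripts, apoc4 was at 291 against 0 to 0.654 and pla2g15 at 49.6 against 4.88 to 9.02. Commercial 65 dph replicate 1 held lpl at 1.46 against 8.69 to 13.3 and pla2g1b at 3.78 against 17.7 to 28.2. Select 65 dph replicate 2 held apoc2 at 0 against 7.96 to 24.6 and fabp3 at 17.9 against 37.0 to 46.6. Single cases were plcg2 at 151 against 74.9 to 78.2 in Commercial 65 dph replicate 4, pparb at 0.937 against 4.70 to 6.53 in Select 65 dph replicate 5, mogat3b at 5.12 against 6.59 to 7.14 in Select 20 dph replicate 4, and agpat4 at 0.695 against 0 in Commercial 20 dph replicate 2.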

How the results depend on the processing

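Counts of called genes among the 44 tested, 3 of which match by letters only, kept within 1.5 times under every alternative for the age comparisons. In Select, where 23 were called, the settings other than leaving out a single library gave 17 to 24, with 18 by limma-voom and 17 without the 3 libraries that stood apart; leaving out 1 library at a time gave 18 to 24. Over all features in Select, limma-voom called 10333 of 32166, and the fit without the 3 libraries called 9849 of 32412. Fits without 1 Select library called from 9737 of 33070 to 10467 of 33240 features there. In Commercial, where 22 of the 44 were called, these settings gave 21 to 23, and leaving out 1 library gave 21 to 23. Fits without 1 Commercial library called from 8326 of 33047 to 9743 of 33009 features there. Between strains at 20 dph the count of 0 became 2 with DESeq2 (lipia and apom) and 1 without the 3 libraries (lipia), and leaving out 1 library gave 0 to 0. Over all features DESeq2 called 442 of 32012 there, and the fit without the 3 libraries called 73 of 32412. At 65 dph the count became 1 without the 3 libraries and 1 without Commercial replicate 2 (pla2g4ab both times), so that leaving out 1 library gave 0 to 1. Those fits called 71 of 32412 and 125 of 32961 features at 65 dph. The interaction count was 0 under every alternative run, 0 to 0 over 20 fits without 1 library. The strain value of apoc4 at 20 dph reversed to -3.28 without Select replicate 1 and to -3.30 without the 3 libraries, and was 6.86 without Commercial replicate 5. With the replicate block, 20 genes were called by age in Select, 21 in Commercial and 0 in each other comparison. Over all features the block fit called 10536 of 32166 by age in Select and 9291 of 32166 in Commercial. Same-numbered samples share only a number, and each comparison had 1 of 5 samples that correlated best with its own number. Over all 220 values of the 44 genes in the 5 comparisons, 1861 refitted values under other settings and 2479 without 1 library kept direction and side of the threshold. The call was lost in 23 under other settings and 29 without 1 library, and gained in 12 and 10. The sign turned in 1 and 1 that had been called (apoc4 by age in Select, without the 3 libraries and without Select 20 dph replicate 1) and in 57 and 121 that had not. The cause of these changes was not tested. Genes at a few counts could not be tested at this depth. With 5 libraries a group, differences between strains under the spread of the libraries were not detectable.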

Other observations

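The share of each paralog within 3 pairs was compared as a percent of the pair's counts, in 12 two-sided exact permutation tests, and none passed after adjustment (adjusted p = 0.19 at the lowest). fabp3 made up 56.2% ± 11.1 of the fabp3 and fabph counts in Commercial 65 dph and 72.2% ± 6.43 in Commercial 20 dph (exact permutation p = 0.0317). In Select the share was 58.5% ± 14.4 at 65 dph and 73.1% ± 9.21 at 20 dph (exact permutation p = 0.0952). lipe1 made up 23.8% ± 5.62 of the lipe1 and lipea counts in Select 65 dph and 14.3% ± 3.29 in Select 20 dph (exact permutation p = 0.0159), against 20.7% ± 6.60 in Commercial 65 dph and 16.1% ± 3.77 in Commercial 20 dph (exact permutation p = 0.23). The share of apoa-i-1 within the apoa-I pair was 37.5% ± 4.39 in Select 65 dph and 43.9% ± 14.9 in Select 20 dph, with no difference past the test. Errors are SD over the 5 libraries of a group.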
